A study of Mus musculus with 34 samples.

Results

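The genes described here are 10 members of the ATF4 program of the integrated stress response: the transcription factor genes *Atf4*, *Atf5* and *Ddit3*, the effector genes *Trib3* and *Chac1*, and the amino acid and one-carbon enzyme genes *Asns*, *Psat1*, *Phgdh*, *Shmt2* and *Mthfd2*. They were chosen by name and not by a threshold on their values, and all 10 were found among the 22040 protein-coding genes of the mRNA-seq table. The 6 libraries were prepared from limb buds of E11.5 mouse embryos, with 3 biological replicates labelled Hnrnpk WT and 3 from conditional knockout (CKO) embryos, whose genotype is Prrx1-Cre;Hnrnpk fl/fl. The remaining 28 of the 34 samples of the series were not analysed here. *Hnrnpk* encodes an RNA- and DNA-binding protein, and in CKO embryos Cre removes internal exons of both floxed alleles. Prrx1-Cre acts in limb bud mesenchyme and in the calvarium, incompletely in the hindlimb, and not in the apical ectodermal ridge, so whole limb buds of CKO embryos also contain cells in which the gene is intact. The alleles of the WT embryos were not described further in the sources used here, nor was it stated whether they carried Cre. The comparison of CKO with WT asks which transcripts differ in limb buds after loss of *Hnrnpk*.

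The integrated stress response joins several kinds of stress to the control of protein synthesis. Kinases that sense amino acid shortage, unfolded proteins in the endoplasmic reticulum, double-stranded RNA or a lack of heme phosphorylate the translation initiation factor eIF2, which lowers general translation while translation of *Atf4* mRNA increases through upstream open reading frames. ATF4 protein then binds C/EBP-ATF response elements together with other bZIP factors and activates genes for amino acid synthesis, amino acid uptake and tRNA charging, and in the skeleton it is known as a regulator of osteoblast and chondrocyte differentiation. Since *Atf4* is controlled largely at translation, its mRNA level does not report the amount of ATF4 protein.

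Levels were given as FPKM, fragments on a gene after division by its exon length and by a size for each library. Depth was similar in both groups, with 17219122, 23165010 and 20869690 reads recovered for WT replicates 1 to 3 against 17140869, 21190287 and 24624434 reads for CKO replicates 1 to 3. The sizes behind the FPKM were not these sums, which amounted to 0.955, 0.968 and 0.957 of the size in WT and to 0.947, 1.107 and 1.033 of it in CKO. *Hnrnpk* (ENSMUSG00000021546, GRCm38 chromosome 13, 58391142 to 58403343, minus strand) had FPKM of 193, 195 and 185 in the WT libraries and of 127, 142 and 135 in the CKO libraries. The groups were apart, with CKO lower by a log2 fold change of -0.50 (SE 0.13). limma did not call this difference over 6 libraries (adjusted *p* = 0.334, or 0.0575 with the replicate number as a block). It was called by limma voom on the recovered reads with that block (-0.49, adjusted *p* = 0.0237) and by limma with replicates 2 and 3 alone (adjusted *p* = 0.0377). The *Hnrnpk* exons share 330 bases with *Rmi1* on the opposite strand. One difference between libraries was not given by the groups. In a principal component analysis, the leading component (52.6% of the variance) set the libraries numbered 1 of both genotypes against those numbered 2 and 3, and the genotypes were split by the next component (26.0%).

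Most ATF4 program genes had somewhat higher mean levels in CKO limb buds, but none of them was called after adjustment over all genes. Of the 9 members with a mean FPKM of at least 0.5, which were the ones tested, 8 had a positive log2 fold change, and *Atf5* had a negative one. In RNA of whole limb buds, fewer cells of a type and less RNA per cell cannot be told apart. The members' median log2 fold change was 0.27, while that of all 12305 genes tested was 0.0048. At a limma adjusted *p* value under 0.05, 0 of 9 members were called, against 8 genes of all those tested (0.0650%), of which 7 were higher and 1 was lower in CKO. At an unadjusted *p* value under 0.05, limma gave 1 member, *Trib3*, against 1022 genes (8.31%) in either direction and 350 genes (2.84%) higher in CKO. The second way of testing, limma voom on reads recovered from the FPKM, also called 0 members. No member doubled or fell to less than 0.5 of its level at an unadjusted *p* value under 0.05, which 82 of all genes tested (0.666%) did. The 3 CKO values lay above the 3 WT values in 2 of 9 members, *Trib3* and *Mthfd2*, against 693 genes (5.63%). The 8 positive fold changes became 7 with quantile normalization and with the libraries rescaled without globin genes, where *Phgdh* was negative, at -0.05 in both. The latter scaling moves all genes nearly alike, with their median at -0.10, so the sign of *Phgdh* there reflects that shift. With 1 library left out, the members' median ranged from 0.18 (without CKO replicate 2) to 0.36 (without WT replicate 1).

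**Figure D1:**
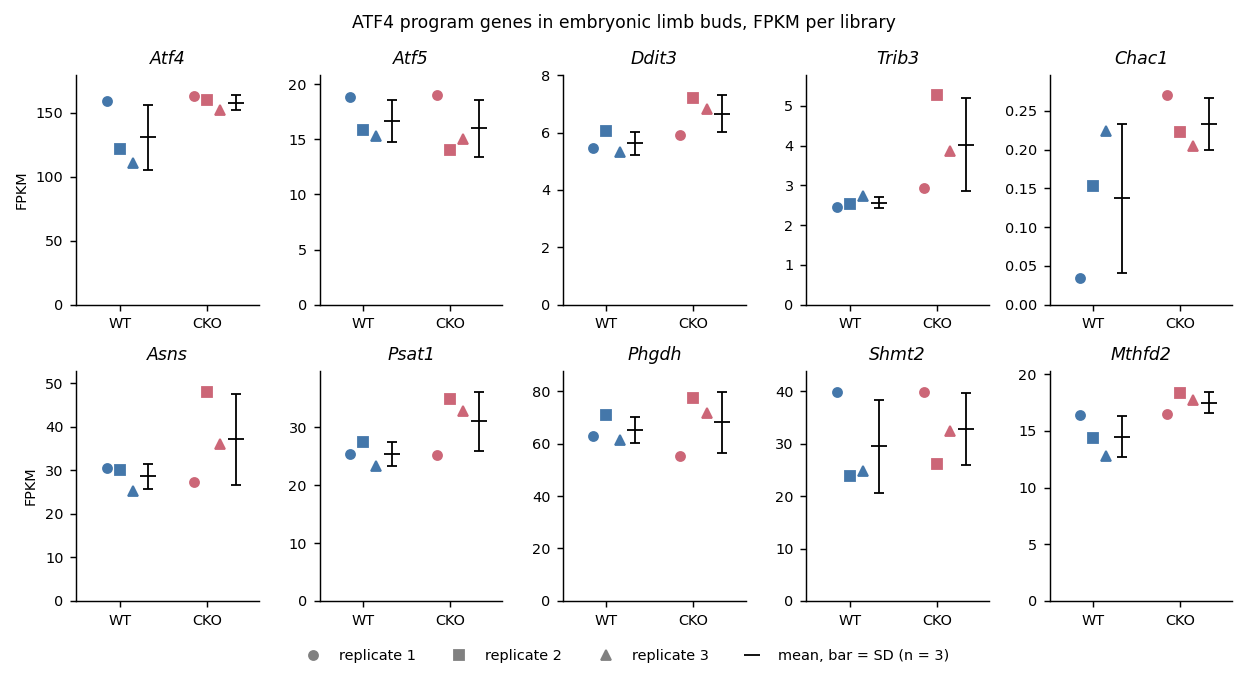
FPKM of the 10 ATF4 program genes in each WT (blue) and CKO (red) library, with a marker for each replicate number and black bars for the mean and SD of 3 libraries. Each panel has its own linear axis from 0. The highest value of every gene lies in a CKO library, narrowly in *Atf4*, *Atf5* and *Shmt2*, although the groups are apart in *Trib3* and *Mthfd2* alone.

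The highest of the 6 values fell in a CKO library for all 10 members, of which 9 were tested, as it did for 56.9% of all genes tested. It was CKO replicate 2 for 6 members, *Ddit3*, *Trib3*, *Asns*, *Psat1*, *Phgdh* and *Mthfd2*, and CKO replicate 1 for the other 4, and these libraries held the highest value of 26.1% and 21.7% of all genes tested. CKO replicate 1 exceeded WT replicate 1 only narrowly in *Atf5* (19.0 against 18.9), *Shmt2* (39.9 against 39.8) and *Atf4* (163 against 159). In *Chac1*, which was not tested, it had 8 reads, as did WT replicate 3. The lowest value fell in WT replicate 3 for 5 members, against 9.1% of all genes tested. Among the members, *Atf4* was the most abundant by FPKM, above 98.2% of the genes tested, followed by *Phgdh* (95.5%), *Asns* (88.9%), *Shmt2* (88.2%) and *Psat1* (86.6%). *Atf5* (75.1%), *Mthfd2* (74.5%), *Ddit3* (45.7%) and *Trib3* (29.5%) came next, and *Chac1* was the least abundant. The mean levels of *Asns*, *Shmt2* and *Psat1* (32.8, 31.2 and 28.2 FPKM) differed by less than the spread between libraries, as did those of *Atf5* and *Mthfd2* (16.4 and 16.0 FPKM).

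Among the transcription factors, *Atf4* (ENSMUSG00000042406, chromosome 15, 80255184 to 80257541, plus strand), whose protein gives the program its name, had FPKM of 159, 122 and 111 in WT and of 163, 160 and 152 in CKO replicates 1, 2 and 3. The CKO libraries were close to each other, and the WT values ranged from well below them to 159 in replicate 1, which exceeded the 152 of CKO replicate 3, so that the groups overlapped. Means were 131 ± 25.4 and 158 ± 5.72 (SD, n = 3). *Atf4* thus had a log2 fold change of 0.29 (SE 0.17, 95% interval -0.10 to 0.67) with a limma adjusted *p* value of 0.711, and the fold change became 0.44 without WT replicate 1 and 0.18 without WT replicate 3. Between libraries of the same number, *Atf4* differed by 0.03 in replicate 1 and by 0.38 and 0.45 in replicates 2 and 3 on the log2 scale.

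*Ddit3* (ENSMUSG00000025408, chromosome 10, 127290774 to 127296288, plus strand) encodes CHOP, a bZIP factor induced by prolonged stress and linked to cell death. Its FPKM were 5.47, 6.07 and 5.33 in WT and 5.93, 7.20 and 6.81 in CKO. The value of CKO replicate 1 lay below that of WT replicate 2, and the other CKO libraries lay above all WT libraries. The log2 fold change was 0.23 (SE 0.13, 95% interval -0.06 to 0.53), with a limma adjusted *p* value of 0.696 and with CKO higher in each of the 3 replicate numbers (0.11, 0.24 and 0.35). Between 169 and 278 reads stood behind these values. The exons of *Ddit3* share 105 bases with a further gene model of that name on the same strand and 68 bases with *Mars* on the opposite strand, so reads there could have been assigned to either gene.

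*Atf5* (ENSMUSG00000038539, chromosome 7, 44812256 to 44816658, minus strand) encodes a bZIP factor that, like ATF4, is controlled by upstream open reading frames and is tied to stress in mitochondria. Its FPKM were 18.9, 15.9 and 15.3 in WT and 19.0, 14.0 and 15.0 in CKO. Replicate 1 was the highest library of both groups, and CKO replicates 2 and 3 lay slightly below all WT libraries. The log2 fold change was -0.06 (SE 0.15, limma adjusted *p* = 0.941), and the 95% interval from -0.42 to 0.29 includes differences of either direction. The sign was positive with WT replicate 1 left out (0.03) and with CKO replicate 2 left out (0.02). The exons of *Atf5* share 82 bases with *Il4i1* and *Nup62* on the opposite strand.

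The promoters of 3 members hold a short C/EBP-ATF response element (CARE), the sequence to which ATF4 and its partners bind, and they are shown because these genes are textbook targets of ATF4. The letters TGATGNAA, with N for any base, were searched on both strands from 250 bases before to 50 bases after the transcription start in RefSeq promoters of GRCm38.p6. All 10 members matched this collection, with 12 windows, and the 3 with a match were *Trib3*, *Chac1* and *Asns*. In the whole collection 1304 of 32851 windows (3.97%) held the element, or 1219 of 27025 genes (4.51%). Of the related genes listed further on, 15 of 70 matched held it, including 5 of 14 tRNA synthetase genes, *Aars*, *Gars*, *Iars*, *Tars* and *Yars*. The stretches below run 5′ to 3′ on the strand of the gene, and capitals mark the element, which reads as its reverse complement in *Chac1* and *Trib3*. A match describes the letters in this window and is not evidence of binding. Positions count from the RefSeq start, and the gene models of GENCODE, whose coordinates are given for each gene, start elsewhere, 45 bases upstream for *Asns*, 13 bases upstream for *Chac1* and 28 bases downstream for *Trib3*. The *Asns* stretch lies at chr6:7693214-7693243 on the minus strand, with the element at positions -23 to -16, before the RefSeq start and inside the GENCODE gene model. The *Chac1* stretch lies at chr2:119351023-119351082 on the plus strand, with the element at positions -193 to -186, before both starts. The *Trib3* stretch lies at chr2:152344028-152344057 on the minus strand, with the element at positions 15 to 22, after the RefSeq start and before that of GENCODE.
Asns: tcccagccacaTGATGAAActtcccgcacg
Chac1: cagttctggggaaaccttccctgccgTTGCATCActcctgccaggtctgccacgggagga
Trib3: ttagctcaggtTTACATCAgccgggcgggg

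*Trib3* (ENSMUSG00000032715, chromosome 2, 152337422 to 152344032, minus strand) encodes a pseudokinase that is induced by ATF4 and CHOP and restrains them in turn. It had the largest log2 fold change of the 9 members tested. FPKM were 2.45, 2.52 and 2.72 in WT and 2.94, 5.26 and 3.87 in CKO replicates 1, 2 and 3. The WT libraries were alike, every CKO library was above all of them, and the CKO libraries differed strongly among themselves, with replicate 1 only slightly above WT and replicate 2 the highest. Means were 2.56 ± 0.138 and 4.02 ± 1.17 (SD, n = 3), on 94 to 214 reads per library. The log2 fold change was 0.59 (SE 0.21, 95% interval 0.11 to 1.08), a fold of 1.51 on the log2(FPKM + 0.1) scale, with a limma *p* value of 0.0229 and an adjusted *p* value of 0.516. An exact two-sided permutation test gave 0.10, the smallest *p* value that 3 libraries against 3 allow. The log2 fold change of *Trib3* was 0.38 without CKO replicate 2 and 0.79 without CKO replicate 1, with no call in either case (adjusted *p* = 0.876 and 0.113).

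*Chac1* (ENSMUSG00000027313, chromosome 2, 119351229 to 119354381, plus strand) encodes an enzyme that degrades glutathione and is a target of ATF4. It was the member below the filter on low values and had no place among the 9 tested. Its FPKM were 0.0339, 0.153 and 0.224 in WT and 0.270, 0.223 and 0.205 in CKO. These values stood for 1, 6 and 8 reads in WT and 8, 7 and 8 reads in CKO, so that WT replicate 1 alone was apart from the other libraries and the groups overlapped (exact permutation *p* = 0.30). With no filter on low values its log2 fold change was 0.58 (SE 0.33, limma adjusted *p* = 0.716).

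*Asns* (ENSMUSG00000029752, chromosome 6, 7675169 to 7693254, minus strand) encodes asparagine synthetase, which makes asparagine from aspartate with glutamine as the nitrogen donor. Its FPKM were 30.5, 30.0 and 25.2 in WT and 27.2, 48.0 and 36.1 in CKO. CKO replicate 1 lay among the WT libraries, while CKO replicates 2 and 3 lay above all of them. The log2 fold change over 6 libraries was 0.34 (SE 0.21, 95% interval -0.14 to 0.82, limma adjusted *p* = 0.724). Within replicate numbers the difference was -0.17 in replicate 1, 0.68 in replicate 2 and 0.51 in replicate 3, so *Asns* was lower in CKO in 1 of the 3 numbers. Without CKO replicate 2 its log2 fold change was 0.14, and without CKO replicate 1 it was 0.55.

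Serine is made from a glycolytic intermediate by PHGDH, PSAT1 and a phosphatase in turn. *Phgdh* (ENSMUSG00000053398, chromosome 3, 98313170 to 98339990, minus strand), the first enzyme of the route, had FPKM of 62.9, 70.9 and 61.5 in WT and of 55.1, 77.5 and 71.6 in CKO. CKO replicate 1 was the lowest and CKO replicate 2 the highest of all 6 libraries. Its log2 fold change was 0.05 (SE 0.16, 95% interval -0.31 to 0.42, limma adjusted *p* = 0.953), so that the means differed by less than the spread between libraries. It was 0.20 without CKO replicate 1 and -0.05 without CKO replicate 2.

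*Psat1* (ENSMUSG00000024640, chromosome 19, 15904678 to 15947337, minus strand), the aminotransferase that follows, had FPKM of 25.4, 27.4 and 23.3 in WT and of 25.2, 34.9 and 32.8 in CKO. CKO replicates 2 and 3 were above all WT libraries, and CKO replicate 1 was level with WT replicate 1. For *Psat1*, limma gave a log2 fold change of 0.28 (SE 0.15, 95% interval -0.08 to 0.63) with a limma adjusted *p* value of 0.701, or 0.42 without CKO replicate 1 and 0.18 without CKO replicate 2.

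Mitochondria take one-carbon units from serine through SHMT2, which splits serine into glycine and a folate-bound carbon, and MTHFD2, which oxidizes that carbon further. *Shmt2* (ENSMUSG00000025403, chromosome 10, 127517123 to 127522444, minus strand) had FPKM of 39.8, 23.9 and 24.8 in WT and of 39.9, 26.1 and 32.5 in CKO. The split ran mainly between replicate numbers, with replicate 1 the highest library of both groups and nearly equal in WT and CKO. Its log2 fold change was 0.17 (SE 0.23, limma adjusted *p* = 0.890), and the SE was the largest among the 9 members. Single libraries moved it widely, to 0.41 without WT replicate 1, 0.33 without CKO replicate 2, 0.07 without WT replicate 3, 0.04 without WT replicate 2 and 0.02 without CKO replicate 1. Its exons share 32 bases with *Ndufa4l2* on the opposite strand.

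*Mthfd2* (ENSMUSG00000005667, chromosome 6, 83305691 to 83325908, minus strand) had FPKM of 16.4, 14.4 and 12.8 in WT and of 16.5, 18.3 and 17.7 in CKO. All CKO libraries were above all WT libraries, but CKO replicate 1 and WT replicate 1 were nearly equal. Means were 14.5 ± 1.78 and 17.5 ± 0.944 (SD, n = 3), with a log2 fold change of 0.27 (SE 0.13, 95% interval -0.02 to 0.57), a limma *p* value of 0.0650 and an adjusted *p* value of 0.635. The exact permutation *p* value was 0.10.

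The difference between CKO and WT was not alike in the 3 replicate numbers. Over the 9 tested members, the median of CKO minus WT was 0.0068 in replicate 1, with 6 members higher in CKO, 0.35 in replicate 2, with 8 higher, and 0.45 in replicate 3, with 8 higher. The medians of all genes tested were -0.01, 0.0014 and 0.0014. *Atf4*, *Ddit3*, *Trib3*, *Shmt2* and *Mthfd2* were higher in CKO in each number, although the difference in replicate 1 was 0.03, 0.11, 0.25, 0.0044 and 0.01. *Asns*, *Psat1* and *Phgdh* were higher in CKO in replicates 2 and 3 and lower in replicate 1, by -0.17, -0.0081 and -0.19. *Atf5* was lower in CKO in replicates 2 and 3 (-0.18 and -0.02).

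**Figure D2:**
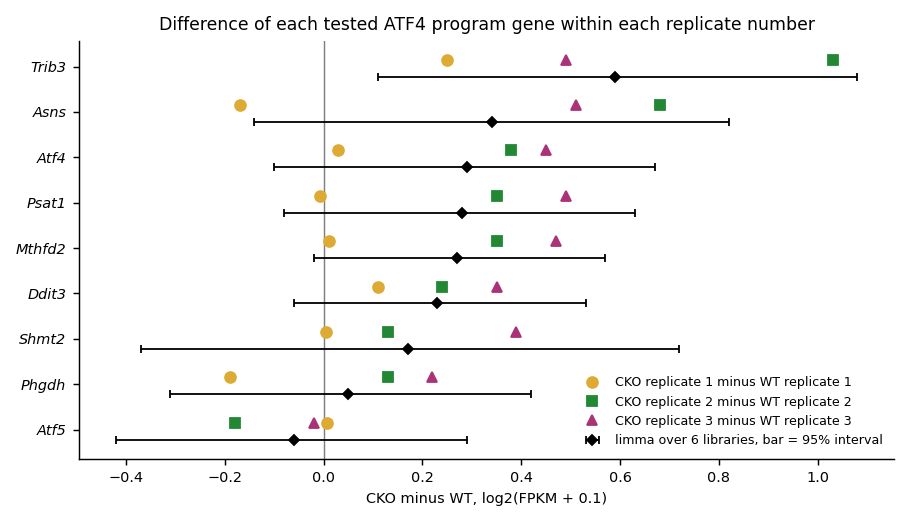
CKO minus WT on the log2(FPKM + 0.1) scale for each tested ATF4 program gene, with coloured markers for the difference within each replicate number and black diamonds with bars for the limma estimate over 6 libraries and its 95% interval. The replicate 1 markers lie near 0 or below for most genes, at -0.17 for *Asns* and 0.25 for *Trib3*, whereas those of replicates 2 and 3 lie above 0 except for *Atf5*, and the interval of *Trib3* alone excludes 0.

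Because replicate 1 stood apart, the members were also compared in 2 further ways. With the replicate number as a block, 0 of 9 members were called at a limma adjusted *p* value under 0.05, against 346 of all genes tested (2.81%), of which 139 were higher and 207 lower in CKO. At an unadjusted *p* value under 0.05 the block gave 4 members, *Trib3*, *Asns*, *Psat1* and *Mthfd2*, all higher in CKO, against 2263 genes (18.4%) in either direction and 1002 genes (8.14%) higher in CKO. Block *p* values were 0.00244 for *Trib3*, 0.0354 for *Asns*, 0.0350 for *Psat1* and 0.0325 for *Mthfd2*, and adjusted they were 0.0632, 0.232, 0.231 and 0.222. limma voom with the block called 0 members as well.

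With replicates 2 and 3 of both groups alone, 5 of 9 members rose in CKO at a limma adjusted *p* value under 0.05, against 1851 of 12305 genes (15.0%) in either direction and 867 (7.05%) higher in CKO. Their log2 fold changes were 0.76 for *Trib3* (adjusted *p* = 6.4e-04), 0.60 for *Asns* (0.00310), 0.42 for *Psat1* (0.0257), 0.41 for *Mthfd2* (0.0266) and 0.42 for *Atf4* (0.0493), and each was higher in both CKO libraries than in both WT libraries. *Ddit3* (0.131), *Shmt2* (0.190), *Phgdh* (0.424) and *Atf5* (0.634) were not called. This comparison rests on 2 libraries a group, was chosen with the separation of replicate 1 known, and is not independent of the comparison of all 6. Its SEs were nearly alike among the members, from 0.13 (*Atf5*) to 0.15 (*Trib3*), because limma draws the variances of genes together. Its *p* values therefore reflect a gene's own spread only in part. Whether the difference between CKO and WT itself differed between replicate 1 and the other numbers was not tested.

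Transcripts of red blood cells moved between libraries along with several members. The summed FPKM of 11 red blood cell markers, of which the embryonic globin *Hbb-y* was the most abundant, was 37985, 63480 and 64227 in WT and 31014, 143340 and 85806 in CKO replicates 1, 2 and 3. It was thus highest in CKO replicate 2, where *Trib3*, *Asns*, *Psat1*, *Phgdh*, *Ddit3* and *Mthfd2* were also highest, and it was lower in CKO than in WT in replicate 1 alone. All 11 markers had a positive log2 fold change, with a median of 0.43. Over 6 libraries 0 were called by limma, and 2 were called higher in CKO by limma voom with the replicate block. With replicates 2 and 3 alone, the comparison that called 5 members, limma called 5 of the 11 higher in CKO. Of all 12305 genes tested, it called 867 (7.05%) higher and 984 lower. The part of red blood cell RNA in the members' differences was not tested. All 10 limb mesenchyme markers were detected, with *Twist1* the most abundant, and their summed FPKM was 373, 388 and 375 in WT and 367, 322 and 359 in CKO. Of these 10, 2 had a positive and 8 a negative log2 fold change, with a median of -0.15, and limma called 0 over 6 libraries. With replicates 2 and 3 alone it called *Tbx5* (-1.19, adjusted *p* = 9.2e-08) and *Twist2* (-0.59, 0.00210) lower in CKO, both named after their values were seen, and the blocked model called *Tbx5* (-0.93, adjusted *p* = 0.00734).

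Markers of other cell types in the limb bud gave smaller sums. They were 47.8, 67.8 and 79.1 in WT and 52.6, 81.1 and 80.7 in CKO for 9 ectoderm markers (most abundant *Krt5*), and 78.1, 116 and 116 against 88.1, 69.3 and 79.7 for 6 cartilage markers (*Col2a1*). Sums for 6 endothelial markers (*Cdh5*) were 30.3, 21.0 and 23.8 against 15.0, 24.1 and 21.5, and for 6 muscle precursor markers (*Myog*) they were 13.9, 29.0 and 26.0 against 25.1, 32.2 and 30.4. Sums for 7 macrophage markers (*C1qb*) were 15.7, 17.0 and 23.7 against 17.1, 29.4 and 20.1, and for 5 neural and Schwann precursor markers (*Tubb3*) they were 7.04, 12.5 and 11.9 against 9.01, 11.1 and 11.0. *Pax7* and *Ptprc* were under an FPKM of 0.5 in every library. In replicates 2 and 3 the cartilage and neural sums were lower in both CKO libraries than in both WT libraries. All 4 cartilage markers tested had negative log2 fold changes (median -0.36), and limma called 0 over 6 libraries. With replicates 2 and 3 alone it called all 4, *Sox9*, *Col2a1*, *Sox5* and *Sox6*, lower, against 984 of 12305 genes tested (the *Sox* genes are named after their values were seen). Of the 4 neural markers tested, 3 had positive log2 fold changes over 6 libraries (median 0.28) and 1 with replicates 2 and 3 alone, with 0 called in either comparison. The tested muscle precursor markers were all positive (5 of 5, median 0.47), with *Pax3*, named after its values were seen, called higher with replicates 2 and 3 alone (adjusted *p* = 0.0471), and all 6 endothelial markers were negative over 6 libraries (median -0.31, 0 called), though 4 of 6 were positive with replicates 2 and 3 alone. Positive log2 fold changes were found for 7 of 9 ectoderm markers (median 0.14) and 5 of 6 tested macrophage markers (median 0.22), with 0 called. The ectoderm, muscle precursor and macrophage sums were, like 6 of the members, highest in CKO replicate 2. Their part in the members' differences was not tested.

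The rest of the pathway was described by 6 lists with 90 genes, of which 85 were tested, 54 with positive and 31 with negative log2 fold changes (50 and 35 with quantile normalization, and 40 and 45 with rescaling without globin genes before the shift of all genes is taken off). With quantile normalization the split became 5 positive and 4 negative for transporters, 7 and 5 for enzymes and 17 and 4 for tRNA synthetases. With replicates 2 and 3 alone, limma called 22 of the 85 genes, against 1851 of 12305 (15.0%) of all genes tested. Of the 85, limma called 19 higher and 3 lower in CKO, against 867 (7.05%) higher and 984 lower of all genes tested. In the order of the lists below, it called 5 eIF2 genes, 4 regulators, 2 transporters, 3 enzymes and 5 tRNA synthetases higher, and 2 enzymes and 1 gene of the ATF6 and XBP1 list lower.

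Upstream of *Atf4*, the 15 genes for eIF2 kinases, eIF2 and eIF2B subunits, phosphatase subunits and *Eif2a* were mostly higher in CKO in replicates 2 and 3 and lower in replicate 1. Of these, 13 had a positive and 2 a negative log2 fold change, with a median of 0.19, and limma called 0 (0 at an unadjusted *p* value under 0.05). The median of CKO minus WT was -0.10 in replicate 1, with 4 of 15 higher in CKO, and 0.21 and 0.29 in replicates 2 and 3, with 12 of 15 higher in each. The median over 6 libraries became 0.12 without WT replicate 2 and 0.10 without CKO replicate 2. *Eif2s3x*, a gene of the X chromosome, encodes the gamma subunit of eIF2 and was the most abundant of the list. Embryos of both sexes were used and their sex was not identified, so the part of embryo sex in its values was not tested. *Eif2s3x* had FPKM of 54.5, 40.4 and 39.8 in WT and of 40.3, 77.6 and 59.9 in CKO. CKO replicate 1 lay among the WT libraries, and CKO replicates 2 and 3 were above all WT libraries, as in *Asns*. Within replicate numbers the difference was -0.44 in replicate 1, 0.94 in replicate 2 and 0.59 in replicate 3. The log2 fold change of *Eif2s3x* was 0.36 (SE 0.25, limma adjusted *p* = 0.768) over 6 libraries and 0.76 (adjusted *p* = 2.0e-04) with replicates 2 and 3 alone. It became 0.62 without CKO replicate 1 and 0.14 without CKO replicate 2. With replicates 2 and 3 alone *Eif2s1*, *Eif2s2*, *Eif2b3* and *Eif2a*, named after their values were seen, were called higher as well.

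**Figure D3:**
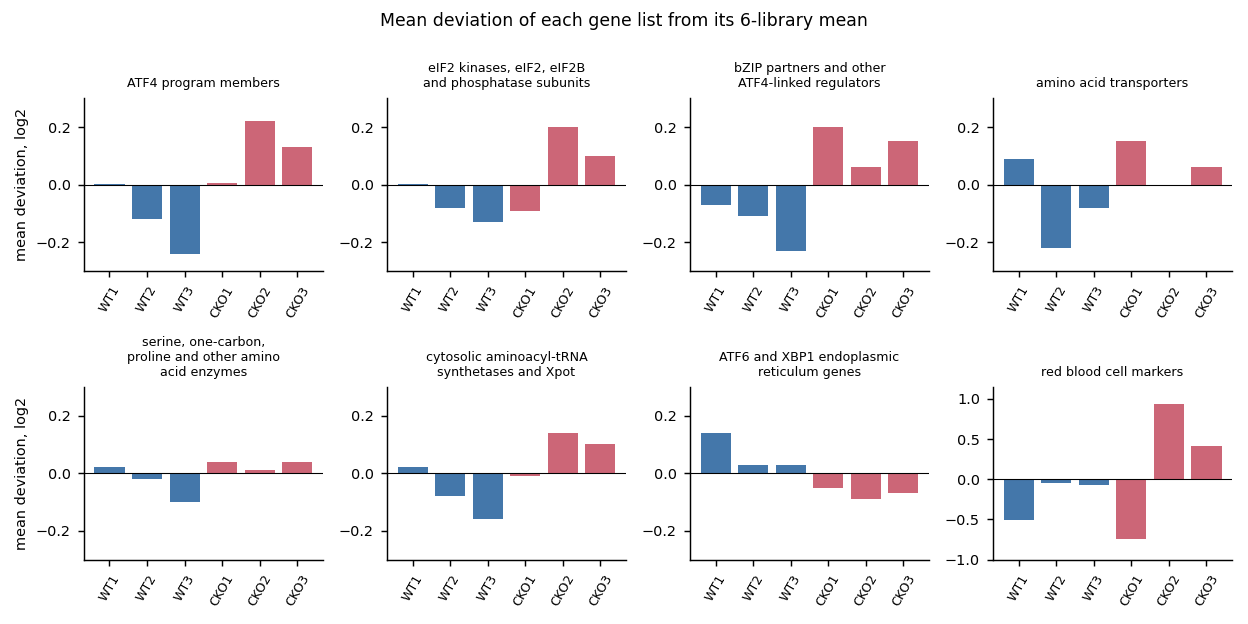
Mean deviation of each gene list from its mean over 6 libraries, on the log2(FPKM + 0.1) scale, in each WT (blue) and CKO (red) library. The ATF4 program, the eIF2 genes and the tRNA synthetases are highest in CKO replicate 2 (0.22, 0.20 and 0.14) and lowest in WT replicate 3 (-0.24, -0.13 and -0.16), and the red blood cell panel has a wider axis.

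Among bZIP partners and other regulators linked to ATF4, 11 of 15 genes were tested, of which 7 had positive and 4 negative log2 fold changes with a median of 0.27. limma called 1 of them, *Sesn2*, which encodes a stress-induced inhibitor of mTORC1 signaling and is a target of both ATF4 and p53. Its FPKM were 3.78, 3.50 and 3.36 in WT and 10.9, 8.91 and 9.79 in CKO. All CKO libraries were far above all WT libraries and replicate 1 differed as much as replicates 2 and 3 did. *Sesn2* rose by a log2 fold change of 1.45 (SE 0.13, limma adjusted *p* = 0.0101, or 3.4e-05 under the blocked model). It was not called (adjusted *p* = 0.138) with the libraries rescaled without globin genes, nor (0.0886, 0.120, 0.0520 and 0.145) without WT replicate 2, WT replicate 3, CKO replicate 2 and CKO replicate 3, with log2 fold changes from 1.34 to 1.51. *Eif4ebp1*, which encodes a translation repressor and was named after its values were seen, had 0.37 at an unadjusted *p* value of 0.0399 (adjusted *p* = 0.564). *Ddit4*, another mTORC1 inhibitor and the most abundant gene of the list, had 0.27 (adjusted *p* = 0.803), which became 0.07 without WT replicate 1, 0.45 without WT replicate 2 and 0.17 without CKO replicate 3. The median of the list fell to 0.14 without WT replicate 2 or WT replicate 3.

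Amino acid transporters and enzymes outside the members gave mixed directions. Of 10 transporter genes 9 were tested, and limma called 0 of them over 6 libraries, while limma voom with the replicate block called 2 higher in CKO, *Slc7a1* and *Slc7a5*. Of the 9, 7 had positive and 2 negative log2 fold changes, with a median of 0.06. This direction rests on single libraries, since without WT replicate 2 there were 4 positive and 5 negative with a median of -0.0028, and without WT replicate 1 the median was 0.23. The arginine transporter *Slc7a1* had the largest change, 0.47 (limma adjusted *p* = 0.681), which was 0.73 without WT replicate 1 and 0.27 without WT replicate 2 and was called with replicates 2 and 3 alone (0.61, adjusted *p* = 0.00633), and the glutamine transporter *Slc38a2*, the most abundant, had 0.06 (0.952). *Slc7a5*, a leucine transporter named after its values were seen, had FPKM of 12.9, 10.3 and 11.3 in WT and of 15.5, 14.0 and 15.9 in CKO. Its CKO libraries were all above WT, with a log2 fold change of 0.40 (limma adjusted *p* = 0.461), and it was the 1 transporter with an unadjusted *p* value under 0.05. With replicates 2 and 3 alone limma called *Slc7a5* as well (0.47, adjusted *p* = 0.0117).

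Of the 12 further enzymes of serine, one-carbon, proline and other amino acid metabolism, 8 had positive and 4 negative log2 fold changes, with 0 calls by limma. Their median was 0.11, and it was 0.04 without WT replicate 3 and 0.06 with 1 added before the log. With a filter at a mean FPKM of 1, which left 10 of them, it was 0.07. At an unadjusted *p* value under 0.05 there were 2 in each direction. *Aldh1l2*, the mitochondrial formyl-folate dehydrogenase, had FPKM of 0.288, 0.434 and 0.544 in WT and of 0.722, 0.724 and 0.754 in CKO, with all CKO libraries above WT. Its log2 fold change was 0.70 (limma adjusted *p* = 0.517), and limma voom with the replicate block called it (0.80, adjusted *p* = 0.0442). At this low level the limma value depends on the number added before the log, and was 0.43 with 0.5 and 0.29 with 1. *Got1*, a cytosolic aspartate aminotransferase, had 0.31 (0.564). *Pycr1*, which makes proline, and *Gpt2*, a mitochondrial alanine aminotransferase, had -0.47 and -0.44, opposite in direction to most members although both are known ATF4 targets. Over 6 libraries limma called neither after adjustment, with or without the replicate block, while limma voom with the block called *Gpt2* (-0.43, adjusted *p* = 0.0262). With replicates 2 and 3 alone both were called lower in CKO, *Pycr1* at -0.61 (adjusted *p* = 0.00408) and *Gpt2* at -0.49 (0.00817), and 3 enzymes were called higher, *Got1* at 0.41 (0.0269), *Mthfd1* at 0.40 (0.0301) and *Psph* at 0.39 (0.0364). *Got1*, *Mthfd1*, *Psph*, *Pycr1* and *Gpt2* were named after their values were seen. The most abundant enzyme of the list, *Aldh18a1*, had 0.03 (0.970). The exons of *Aldh1l2* share 1056 bases with *D10Wsu102e* on the opposite strand.

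Of the 21 genes for cytosolic aminoacyl-tRNA synthetases and the tRNA export factor *Xpot*, 18 had positive and 3 negative log2 fold changes, with a median of 0.15 (0.08 without WT replicate 3, and 0.23 without WT replicate 1, with 20 positive), and limma called 0 (2 at an unadjusted *p* value under 0.05, *Aars* and *Mars*, the latter named after its values were seen). Like the members, this list differed little in replicate 1 (median -0.07, 9 of 21 higher in CKO) and more in replicates 2 and 3 (0.20 and 0.30, with 17 and 20 of 21 higher). *Aars*, for alanine, had FPKM of 19.0, 17.3 and 15.7 in WT and of 21.3, 20.8 and 22.4 in CKO, without overlap. Its log2 fold change was 0.31 (limma adjusted *p* = 0.550), and limma called it with replicates 2 and 3 alone (0.39, adjusted *p* = 0.0342). *Nars*, for asparagine, the most abundant, had 87.4, 78.4 and 76.8 in WT and 75.5, 121 and 100 in CKO, with CKO replicate 1 the lowest library of all as in *Phgdh*, and a log2 fold change of 0.27 (adjusted *p* = 0.774). It was 0.45 without CKO replicate 1, 0.11 without CKO replicate 2 and 0.14 with quantile normalization. *Nars* was called by limma with replicates 2 and 3 alone (0.51, adjusted *p* = 0.0137). The exons of *Aars* share 1326 bases with *Exosc6* on the same strand, and its value is uncertain to that extent.

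The unfolded protein response also has an ATF6 and an XBP1 branch, which raise chaperones and folding enzymes of the endoplasmic reticulum and do not depend on eIF2. Of 17 such genes, 1 had a positive and 16 a negative log2 fold change, with a median of -0.14, opposite to the ATF4 program. Several of the 16 were close to 0, among them the abundant *Hspa5* (-0.0023), *Hsp90b1* (-0.01) and *Pdia6* (-0.02), named after their values were seen. The negative ones numbered 12 with median-ratio scaling, 16 with quantile normalization and 17 with the libraries rescaled without globin genes. Median-ratio scaling and the rescaling move all genes nearly alike, by 0.02 and -0.10 in the median of all genes, so the counts of 12 and 17 reflect that shift and not a change of these genes against the others. The negative ones were also 12 without WT replicate 2, without CKO replicate 1 and with replicates 2 and 3 alone, and the median was -0.09 without CKO replicate 2 and -0.07 without CKO replicate 3 and with replicates 2 and 3 alone. Within replicates 1, 2 and 3 the median was -0.17, -0.12 and -0.13. limma called 0 of the 17 genes, with 2 at an unadjusted *p* value under 0.05, *Sdf2l1* and *Creld2*. *Sdf2l1*, which encodes a chaperone cofactor, had FPKM of 13.6, 14.2 and 13.0 in WT and of 9.32, 8.44 and 9.46 in CKO. The groups were well apart in every replicate number, with a log2 fold change of -0.58 (SE 0.11, adjusted *p* = 0.197), and *Sdf2l1* fell under the blocked model (adjusted *p* = 0.0148). *Creld2*, named after its values were seen, had -0.30 (adjusted *p* = 0.564), and the calcium-binding chaperone *Calr*, the most abundant, had -0.01 (0.988). The element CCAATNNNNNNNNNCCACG of this branch (ERSE) was found on either strand in 0 of 10 members and in 6 of 14 matched genes of this list, against 39 of 32851 RefSeq promoter windows (0.119%).

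**Figure D4:**
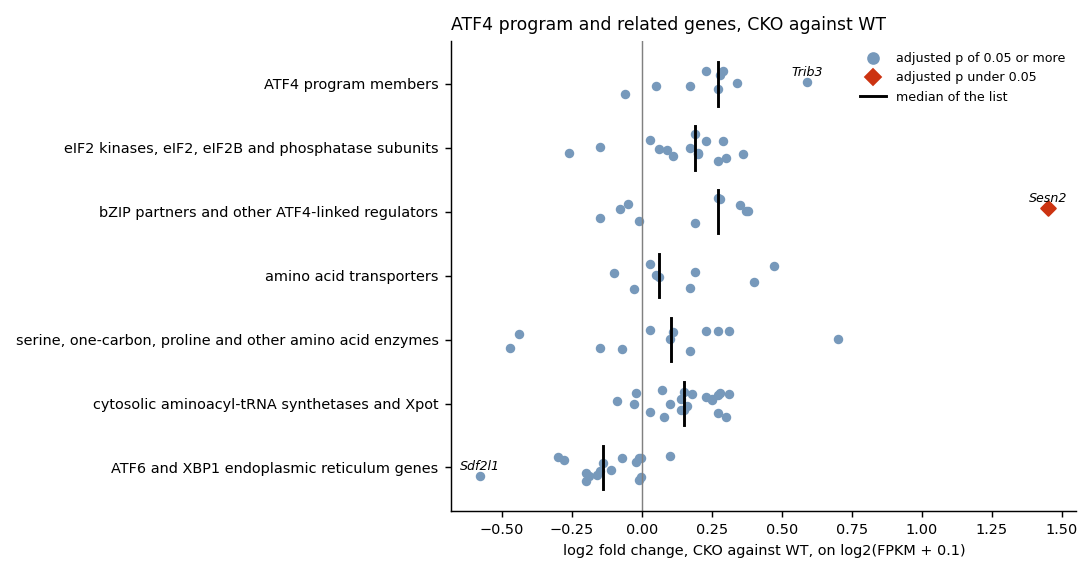
Log2 fold change of CKO against WT on the log2(FPKM + 0.1) scale for each tested gene (points) of the ATF4 program and 6 related lists, with a black line at each list's median and a red diamond for the 1 gene called at an adjusted *p* value under 0.05, *Sesn2*. The ATF4 program has a median of 0.27 and the ATF6 and XBP1 genes have one of -0.14, with 16 of 17 below 0. Several of these 16 lie close to 0.

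Of all genes outside these lists, the 5 whose levels over the 6 libraries were most like the mean standardised level of the 9 members were *Napa*, *Gpn2*, *Mcm5*, *Lsg1* and *Zbed5*, with Pearson correlations of 0.997, 0.993, 0.990, 0.990 and 0.990, given as a description of 6 libraries. The members' mean standardised level was 0.03, -0.39 and -0.99 in WT and 0.02, 0.83 and 0.51 in CKO replicates 1, 2 and 3. *Mcm5*, a subunit of the replicative helicase, followed it with FPKM of 90.3, 86.6 and 75.8 in WT and of 92.0, 102 and 98.6 in CKO, and its log2 fold change was 0.21 (limma adjusted *p* = 0.723).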

How the data were processed

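RNA-seq of 6 E11.5 limb bud samples was used. Per the submitters' processing notes, the tools of the series included cutadapt 2.5, HISAT2 2.1.0 and featureCounts 1.6.3 with the build mm10, and libraries were made with a stranded kit. Whether counting used the strand, and the annotation, are not given in the sources used here. The authors deposited FPKM for each gene and library. Of the genes, 99.5% were found in GENCODE vM21, and multiplying FPKM by merged exon length gave whole reads, within 0.1 reads, in all 6 libraries for 92.6% of them. A gene of 2 kb at an FPKM of 0.5 rests on 18.0 to 23.9 reads. *Atf4* did not give whole reads with this exon length.

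log2(FPKM + 0.1) was compared with limma 3.58.1 in R 4.3.3 (mean-variance trend) for 12305 genes whose FPKM averaged 0.5 or more, and *p* values were adjusted over all of them (Benjamini-Hochberg). Fold changes on this scale understate changes of low genes. *p* values measure the spread between 3 biological replicates. Intervals are 95% intervals of the model. Single values were compared by exact two-sided permutation. limma was tested on simulated data. Figures were drawn with matplotlib 3.10.9.

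Replicate numbers are shared by the groups in the labels. Deviations from the group means correlated across genes at 0.64, 0.44 and 0.27 for numbers 1, 2 and 3, all over 0.1, so same-numbered libraries counted as pairs, although WT replicate 2 correlated more with CKO replicate 3 (0.49) and WT replicate 3 more with CKO replicate 2 (0.31). Deviations sum to 0 within a group, so with replicate 1 apart in both groups, numbers 2 and 3 tend to correlate with either of the other group. The correlations therefore cannot show which of the libraries numbered 2 and 3 belong together. Estimates, SEs and intervals come from the model without the pairs unless the block is named. What a number stands for was not stated.

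Alternatives were pseudocounts of 0.5 and 1, no filter, a higher filter (mean FPKM of 1), median-ratio scaling, quantile normalization, rescaling without 7 globin genes, no trend, the replicate block, limma voom on recovered reads with and without the block, replicates 2 and 3 alone, and each library left out in turn. The members and lists were chosen with earlier results of these data known. The genes named are *Hnrnpk*, the members, related genes called with or without the block, the largest change and the most abundant gene of each related list, the most abundant gene of each marker list, and the 5 most like the members' mean, beside tRNA synthetase genes with the CARE, markers under an FPKM of 0.5 in every library and genes said to be named after their values were seen. *Ahsp*, a red blood cell marker, was not used, and the sum of neural and Schwann precursor markers leaves out 1 gene of the planned list.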

Additional observations from a re-analysis of the deposited data

How the results depend on the processing

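Over 18 alternatives, limma called 0 of 9 members (0 of 10 with no filter) except with replicates 2 and 3 alone, which called 5, and the members' median log2 fold change kept its sign, between 0.17 and 0.41. The count of all genes called, 8, became 14 with quantile normalization, 4 with rescaling without globin genes, 346 with the replicate block (139 higher and 207 lower in CKO), 628 for voom with the replicate block (235 and 393), 1851 with replicates 2 and 3 alone, and 1 to 23 with 1 library left out. Related genes called, 1, became 0 without globin genes, 2 with the replicate block, 6 for voom with the replicate block, 22 with replicates 2 and 3 alone, and 0 to 1 with 1 library left out. The cause was not tested. The replicate block added *Sdf2l1* and the marker *Tbx5* to the named genes called and changed no other call among them, while voom with the replicate block also called *Aldh1l2*, *Slc7a1*, *Slc7a5*, *Gpt2*, *Hnrnpk* and the marker *Twist2*. Signs turned for *Phgdh* (-0.05 with quantile normalization, with rescaling without globin genes and as the lowest of -0.05 to 0.20 with 1 library left out), *Atf5* (-0.19 to 0.03 with 1 library left out), *Aldh18a1* (-0.0055 with quantile normalization, -0.08 without globin genes, -0.0051 with replicates 2 and 3 alone, -0.05 to 0.12 with 1 library left out), *Calr* (0.0041 with median-ratio scaling, 0.01 with replicates 2 and 3 alone, -0.06 to 0.02 with 1 library left out) and *Slc38a2* (-0.06 with quantile normalization, -0.05 without globin genes, -0.07 to 0.18 with 1 library left out). *Hspa5*, *Hsp90b1* and *Pdia6*, close to 0 over 6 libraries, turned positive with replicates 2 and 3 alone (0.08, 0.05 and 0.06). With rescaling without globin genes and median-ratio scaling, such turns reflect a shift of all genes, whose medians were -0.10 and 0.02. Among the members, depth limits *Chac1* most, at 1 to 8 reads per library, and then *Trib3*, at 94 to 214.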
